A study of Mus musculus with 24 samples.

Results

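The mRNAs of the enzymes that build purine and pyrimidine nucleotides were followed in mouse Th1 effector cells during the first 4 h after restimulation of the T cell receptor. The enzymes were taken from a list of 10 genes chosen by function (Cad, Umps, Ctps, Ppat, Paics, Gart, Pfas, Atic, Adsl and Impdh2). Of these, 9 had a row among the 9420 genes of the deposited table, and all 9 passed the filter on low values in every kind of library. Impdh2 was not analysed here.

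Th1 effector cells are CD4+ T cells that secrete interferon gamma, and all libraries came from cells of the DO11.10 strain, whose T cells carry a transgenic receptor. Restimulation used anti-CD3 at 1 µg/ml and anti-CD28 at 2.5 µg/ml in solution, over plate-bound goat antibody to hamster immunoglobulin. Newly made RNA was marked with 4-thiouridine (4sU), total RNA was sequenced beside it, and ribosome-protected fragments (RP) gave the mRNA stretches covered by ribosomes. In 4sU RNA, labelled for 1 h at 200 µM, the times 0, 1 and 4 h were sampled by 2 libraries and the times 2 and 3 h by 1 library. In total RNA the 0 h and 4 h samples came as 2 libraries, the 1 h and 2 h samples as 1. In RP 2 libraries stood for 0 h, for 1 h and for 4 h, and 1 for 0.5 h and for 2 h. Further 4sU RNA, labelled for 0.5 h at 500 µM, was taken at 0 h and at 0.5 h (1 library for each time). The authors deposited the values as FPKM, in which the fragments of a gene are divided by its length in kilobases and by the size of the library.

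The purine ring is assembled on phosphoribosyl pyrophosphate (PRPP) in a chain of steps that Ppat starts and Atic ends with inosine monophosphate. Gart, Pfas, Paics and Adsl catalyse steps between them, and Adsl acts again when adenosine monophosphate is made. Pyrimidines are built the other way, ring first: Cad makes the ring precursor, Umps attaches PRPP and yields uridine monophosphate, and Ctps turns uridine triphosphate into cytidine triphosphate. Resting lymphocytes lean on salvage of ready-made bases, and activated T cells are known to turn on de novo synthesis before they divide.

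The cells expressed the markers of their label, and the replicates differed in some markers of other cells. In total RNA at 0 h, Cd4 stood at 127 and 82.4 FPKM in replicates 1 and 2, and Tbx21, the master regulator of Th1 cells, at 34.9 and 24.5 FPKM. Foxp3, which defines regulatory T cells, stood at 1.33 and 1.69 FPKM, while Ctla4 and Il2ra, which are on the same list and which activated T cells also express, stood at 190.5 and 187 FPKM and at 58.5 and 92.3 FPKM. Of the Th2 list, Il5 was listed at 0 in both and Gata3 stood at 7.03 and 15.9 FPKM. The summed level of the 6 CD8 T cell markers ran from 405 to 535 FPKM in the total RNA libraries of replicate 1 and from 71.0 to 119.9 FPKM in those of replicate 2. The same sum ran from 183 to 290 FPKM and from 43.7 to 109.7 FPKM in 4sU RNA, and from 1247 to 1643 FPKM and from 353 to 463 FPKM in RP. Of the CD8 list in total RNA at 0 h, Gzma stood at 214.6 and 4.42 FPKM and Cd8a at 23.5 and 3.78 FPKM. Only Eomes, at 0.66 and 0.79 FPKM, was lower in replicate 1. The 4 of 6 dendritic cell markers in the table also summed higher in replicate 1, at 28.9 to 75.6 FPKM against 21.1 to 24.3 FPKM in total RNA. The sums of the 2 of 6 NK cell markers in the table overlapped there, at 24.1 to 38.6 FPKM and 13.0 to 39.35 FPKM. In RNA the nucleotide enzymes differed between replicates as well. The median of replicate 1 minus replicate 2 over the 9 enzymes was 0.36, 0.30 and 0.36 on the log2 scale in 4sU RNA at 0, 1 and 4 h, against -0.01, -0.02 and -0.08 over all genes. It was 0.28 and 0.38 in total RNA at 0 and 4 h, against 0.11 and 0.04 over all genes. In RP it was 0.026 at 0 h and -0.0045 at 1 h, with 6 and 4 of the 9 enzymes higher in replicate 1, and 0.42 at 4 h. The times sampled once are all of replicate 1, except total RNA at 1 h, which is of replicate 2, and the part of these differences in the results was not tested.

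All 9 genes are protein coding, and their positions are given on GRCm38 from GENCODE M21. Cad (ENSMUSG00000013629) lies at chr5:31054780-31078479 on the plus strand, Umps (ENSMUSG00000022814) at chr16:33954782-33967038 on the minus strand and Ctps (ENSMUSG00000028633) at chr4:120539868-120570276 on the minus strand. Ppat (ENSMUSG00000029246) lies at chr5:76913249-76951578 on the minus strand and Paics (ENSMUSG00000029247) at chr5:76951307-76967509 on the plus strand, so the pair runs head to head and shares 272 bases at the 5′ ends. Gart (ENSMUSG00000022962) lies at chr16:91621186-91646952 on the minus strand and Pfas (ENSMUSG00000020899) at chr11:68985697-69008460 on the minus strand. Adsl (ENSMUSG00000022407) lies at chr15:80948490-80970946 and Atic (ENSMUSG00000026192) at chr1:71557150-71579631, both on the plus strand. The shared stretch is 6.15% of the exonic bases of Ppat and 8.67% of those of Paics. Antisense genes cover 19.7% of the exonic bases of Gart and 6.11% of those of Umps, and the strand setting of the counting is not given in the sources used here, so reads of such partners could be in these values.

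Because most of these genes moved together, their promoters were searched for short motifs on both strands. RefSeq promoter windows on GRCm38.p6, from 250 bases before the transcription start to 50 after it, matched 8 of the 9 genes, all but Pfas, with a pair of windows for Ctps. The E-box CACGTG, the core that Myc and its relatives bind, was present in 7.15% of all 32851 windows and in those of Atic and Paics. The cyclic AMP response element TGACGTCA was present in 1.79% of all windows and in that of Umps. CCAAT was present in 37.4% of all windows and in those of Atic, Paics and Gart, and the ETS site CCGGAAG was present in 8.86% of all windows and in those of Ppat and Gart. No motif overlapped another in these windows. The stretches around the E-boxes and the response element are shown because they are the rarer letters found, with the motif in capitals:

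Atic, chr1:71557137-71557166, plus strand: ggacctcggggtCACGTGgggtcgacacgc
Paics, chr5:76951087-76951116, plus strand: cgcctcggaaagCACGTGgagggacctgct
Umps, chr16:33967017-33967046, minus strand: ggacttctgggTGACGTCAcgggccccaag

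Counted from the transcription start, the Atic E-box begins at position -7. The Paics E-box begins at position -203, inside the transcribed part of its neighbour Ppat, and Paics was the enzyme that was called in no comparison. The 250 bases before the start are shown for Ctps, which of these enzymes had the largest increase in total RNA and RP, and for Gart, the purine enzyme with the largest increase in 4sU RNA. The capitals in Gart mark its CCAAT, and the Ctps stretch holds none of the motifs:

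Ctps, chr4:120570277-120570526, minus strand: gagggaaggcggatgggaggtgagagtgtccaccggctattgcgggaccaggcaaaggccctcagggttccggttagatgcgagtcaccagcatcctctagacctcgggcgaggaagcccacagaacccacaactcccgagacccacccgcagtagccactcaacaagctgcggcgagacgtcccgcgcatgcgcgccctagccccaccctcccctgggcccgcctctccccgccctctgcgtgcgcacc
Gart, chr16:91646973-91647222, minus strand: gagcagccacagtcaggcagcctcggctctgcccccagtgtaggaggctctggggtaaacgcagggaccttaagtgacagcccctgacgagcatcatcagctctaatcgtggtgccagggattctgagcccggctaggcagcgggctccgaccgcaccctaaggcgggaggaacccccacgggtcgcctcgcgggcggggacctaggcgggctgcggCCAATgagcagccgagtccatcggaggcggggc

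These stretches hold 67.6% and 68.0% G and C in Ctps and Gart, against a median of 52.4% over all promoter windows. The other Ctps window, not shown, holds 53.6% before its start. Among the enzymes with a window, this part ran from 49.6% in Umps to 68.8% in Atic. A match or its absence is a description of these letters and was not tested against the RNA values.

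Before restimulation, Paics stood well above the other 8 enzymes. In 4sU RNA at 0 h it averaged 40.1 ± 3.38 FPKM (SD, n = 2), higher than 86.7% of all genes in the table. Umps followed at 14.8 ± 1.90 FPKM, and the other 7 averaged between 6.40 FPKM for Pfas and 10.9 FPKM for Gart. Below Paics the replicates of neighbouring genes in this order overlapped, so no order is read among the other 8. RP values are per kilobase of coding sequence and the RNA values fit the summed exon length where the length could be read from the values, so levels are not compared between RP and RNA.

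In newly made RNA at 4 h, 8 of the 9 enzymes had risen and Paics was the exception. Cad and Ctps rose most, about 5-fold, Gart rose more than 3-fold, and the other 5 rose between 2.44-fold and 2.74-fold as ratios of mean FPKM. Of all genes tested, 33.3% were called in either direction, 14.4% higher and 18.9% lower. Both 4 h libraries lay above both 0 h libraries for 8 of the 9 enzymes, as they did for 28.7% of all genes. The median change over the 9 enzymes was 1.34 on the log2 scale, against -0.16 over all genes. In bulk RNA, a change in the number of cells of a type and a change in RNA per cell cannot be told apart.

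**Figure D1:**
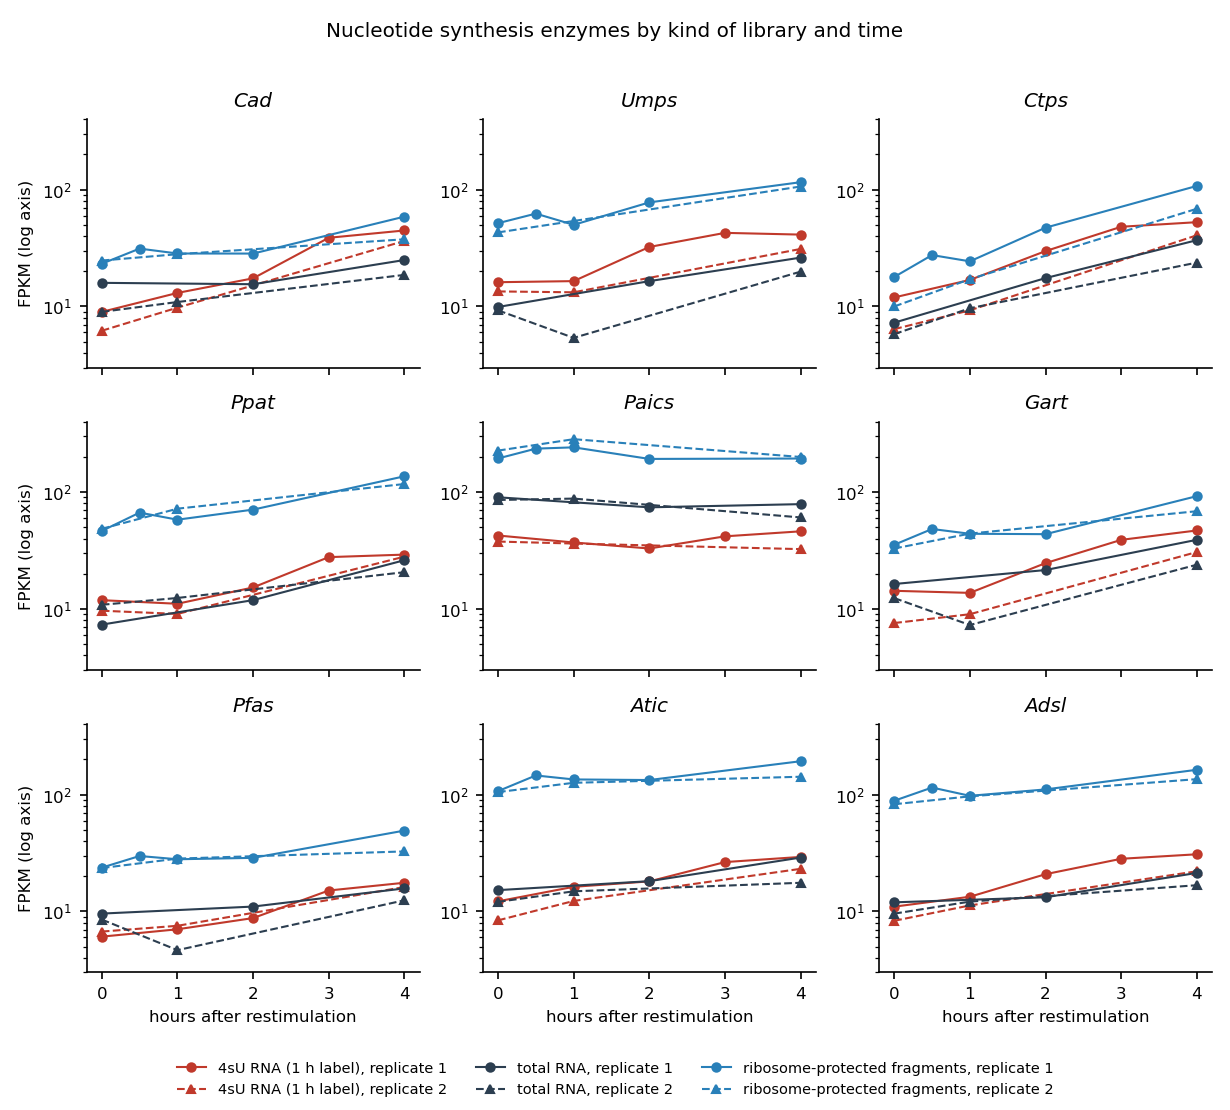
FPKM of each enzyme (log axis) against hours after restimulation, with 1 point per library, lines joining the libraries of a replicate, and colours for 4sU RNA with 1 h of labelling, total RNA and ribosome-protected fragments. Apart from Paics, every enzyme ends at 4 h above its own 0 h values in all 3 kinds of library.

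Among the pyrimidine enzymes, Cad, the multifunctional protein that starts the pathway, stood in 4sU RNA at 8.98 and 6.19 FPKM at 0 h, 13.1 and 9.76 FPKM at 1 h, 17.4 FPKM at 2 h, 38.7 FPKM at 3 h and 44.7 and 36.4 FPKM at 4 h, replicate 1 before replicate 2. Both libraries at 4 h and both at 1 h lay above both at 0 h. The change at 4 h was 2.29 ± 0.24 on the log2(FPKM + 1) scale (standard error, limma adjusted p = 0.00298), a 5.34-fold ratio of means.

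Ctps, the enzyme that makes cytidine triphosphate, stood at 11.9 and 6.39 FPKM at 0 h, 16.9 and 9.26 FPKM at 1 h, 29.8 FPKM at 2 h, 48.1 FPKM at 3 h and 52.6 and 40.7 FPKM at 4 h. The groups at 4 and 0 h did not overlap, while those at 1 and 0 h did. Replicate 1 lay above replicate 2 by 0.81 on the log2 scale at 0 h and 0.80 at 1 h, and the change at 4 h was 2.27 ± 0.37 (adjusted p = 0.00748).

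Umps, which completes uridine monophosphate, stood at 16.1 and 13.4 FPKM at 0 h, 16.5 and 13.2 FPKM at 1 h, 32.3 FPKM at 2 h, 42.6 FPKM at 3 h and 41.2 and 31.1 FPKM at 4 h. Its values at 1 h overlapped those at 0 h, and at 4 h both libraries lay above both at 0 h. The change at 4 h was 1.23 ± 0.21 (adjusted p = 0.00938).

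In the purine chain, Ppat, the amidotransferase that commits PRPP to purines, stood at 11.9 and 9.65 FPKM at 0 h, 11.1 and 9.06 FPKM at 1 h, 15.3 FPKM at 2 h, 27.8 FPKM at 3 h and 29.2 and 28.0 FPKM at 4 h. It was highest at 3 and 4 h, its values at 1 h overlapped those at 0 h, and the change at 4 h was 1.34 ± 0.18 (adjusted p = 0.00482).

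Gart, which carries several of the early purine activities on a single protein, stood at 14.3 and 7.57 FPKM at 0 h, 13.7 and 9.01 FPKM at 1 h, 24.7 FPKM at 2 h, 39.0 FPKM at 3 h and 47.0 and 30.7 FPKM at 4 h. Both libraries at 4 h lay above both at 0 h, and replicate 1 lay above replicate 2 at every time. The change at 4 h was 1.77 ± 0.36 (adjusted p = 0.0146).

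Pfas, an amidotransferase that acts on a product of Gart, had the lowest mean of the enzymes at each time, with 6.08 and 6.72 FPKM at 0 h, 7.03 and 7.53 FPKM at 1 h, 8.77 FPKM at 2 h, 15.1 FPKM at 3 h and 17.6 and 16.2 FPKM at 4 h. Its replicates lay close together, and the change at 4 h was 1.27 ± 0.16 (adjusted p = 0.00424).

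Adsl, which releases fumarate in the chain and again in the branch to adenosine monophosphate, stood at 11.0 and 8.31 FPKM at 0 h, 13.4 and 11.3 FPKM at 1 h, 20.8 FPKM at 2 h, 28.2 FPKM at 3 h and 30.8 and 22.1 FPKM at 4 h. Atic, which closes the ring, stood at 12.2 and 8.38 FPKM at 0 h, 16.2 and 12.3 FPKM at 1 h, 18.1 FPKM at 2 h, 26.4 FPKM at 3 h and 29.3 and 23.2 FPKM at 4 h. Both genes were higher at each later time within a replicate, and their groups at 4 and 0 h did not overlap. The changes at 4 h were 1.36 ± 0.23 for Adsl (adjusted p = 0.0087) and 1.28 ± 0.25 for Atic (adjusted p = 0.0124).

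Paics, which catalyses a pair of consecutive steps in the middle of the chain, stood at 42.5 and 37.7 FPKM at 0 h, 37.1 and 36.3 FPKM at 1 h, 32.9 FPKM at 2 h, 41.8 FPKM at 3 h and 46.2 and 32.5 FPKM at 4 h. Its groups at 4 and 0 h overlapped, with replicate 1 above and replicate 2 below its own 0 h value at 4 h. The change was -0.05 ± 0.21 (adjusted p = 0.885), and it was 0.12 when the libraries were rescaled by the median of ratios, so no direction is read from it.

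The 4sU calls at 4 h depended in part on single libraries. Fewer of all genes were called as well whenever a library was left out, so the losses are not read as particular to the enzymes. Without replicate 2 at 0 h, 4 of the 8 calls were left and Umps, Gart, Atic and Adsl lost theirs, while without replicate 1 at 4 h, 6 calls were left and Gart and Atic lost theirs. Rescaling by the median of ratios raised the median 4sU change of all genes at 4 h by 0.15, and the called genes were 1645 higher and 1374 lower, against 1334 higher and 1755 lower as deposited. Rescaling left 8 enzymes called.

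**Figure D2:**
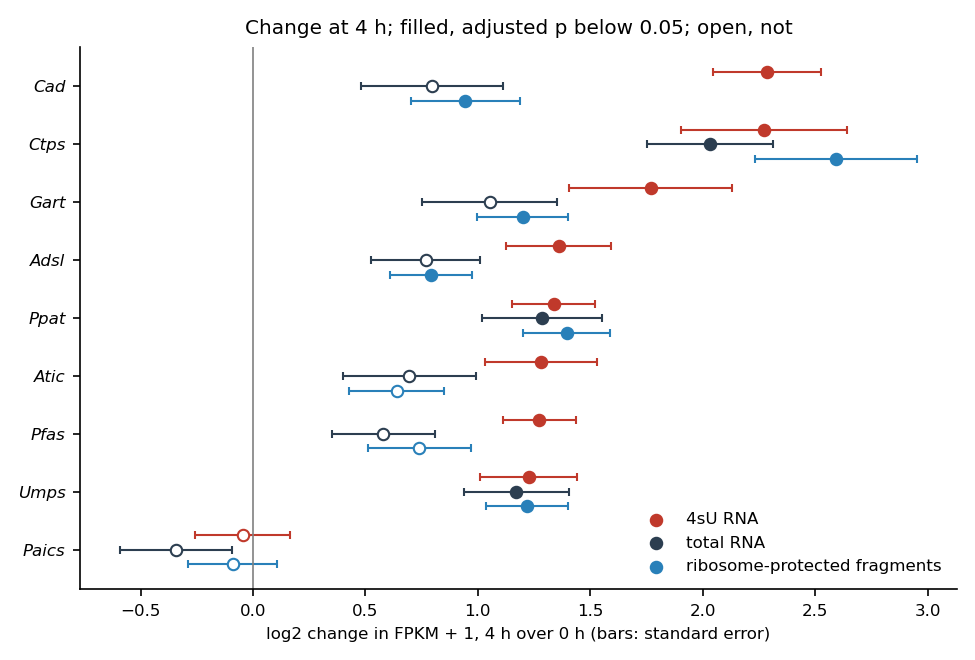
Change in log2(FPKM + 1) at 4 h over 0 h with its standard error for each enzyme and each kind of library, filled where the limma adjusted p was below 0.05. The 3 kinds of library lie closest together for Umps and Ppat. 4sU RNA lies to the right of both other kinds for Cad, Gart, Pfas, Atic and Adsl, by most for Cad, and ribosome-protected fragments do so for Ctps. Paics, which was not called, lies between -0.34 and -0.05 (0.12 in 4sU RNA after rescaling).

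Most of the increase of newly made RNA lay between 1 and 3 h. At 1 h none of the 9 enzymes was called by limma, none had an unadjusted p below 0.05, and 0.183% of all genes were called. Cad was nearest, with a change of 0.54 ± 0.24 (adjusted p = 0.414), and it was called with the replicate number as a block (adjusted p = 0.0426), as were 10.6% of all genes. At 2 h, with a single library, again none was called, against 7.56% of all genes, while 6 had an unadjusted p below 0.05. With the block these 6 were called, and so were 31.0% of all genes. They were Ctps at 1.65 (adjusted p = 0.0731, 0.0037 with the block), Gart at 1.17 (0.14 and 0.0122), Cad at 1.12 (0.0682 and 0.00709), Umps at 1.08 (0.0587 and 0.00679), Adsl at 1.05 (0.0722 and 0.00943) and Atic at 0.78 (0.145 and 0.0367). These 6 changes are of the fit without the block. With it they were 1.33 for Ctps, 0.83 for Gart, 0.93 for Cad and for Umps, 0.87 for Adsl and 0.58 for Atic. Ppat and Pfas, at 0.47 and 0.40 (0.38 and 0.42 with the block), were called by neither fit.

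At 3 h all enzymes but Paics were called higher, against 20.1% of all genes called and 9.41% called higher (873 higher and 996 lower, or 1040 and 733 after rescaling). With the block the changes, Paics aside, ran from 1.10 for Atic and 1.14 for Pfas to 2.00 for Ctps and 2.04 for Cad. Without it they ran from 1.12 ± 0.20 for Pfas (adjusted p = 0.0183) to 2.33 ± 0.45 for Ctps (adjusted p = 0.0226), and Paics had 0.06 ± 0.26 (adjusted p = 0.877). These calls rest on 1 library at 3 h and both at 0 h: without 0 h replicate 1 the call of Cad was left, and without 0 h replicate 2 none was left. Between 4 and 1 h, 7 of the 9 enzymes were called higher (26.7% of all genes called, 11.9% higher), Paics was not, and Atic had 0.84 ± 0.25 (adjusted p = 0.0518, 0.00143 with the block). Fewer enzymes were called between 4 and 1 h without 4 h replicate 1 or without 1 h replicate 2. In these fits, and in those at 3 h without a 0 h library, fewer of all genes were called too.

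Within replicate 1, which has every time point of 4sU RNA, each enzyme's change can be set against its own change at 4 h. Both changes are in log2(FPKM + 1), so the percentages are not shares of the rise in FPKM. Leaving out Paics, the 8 enzymes had reached between -7.63% and 32.2% of it at 1 h (median 15.8%), between 27.5% and 73.7% at 2 h (median 44.8%) and between 84.2% and 104% at 3 h (median 91.0%). Umps was the furthest at 2 h and Ppat the least far. In total RNA of the same replicate the 8 had reached between -6.01% and 52.8% at 2 h (median 29.3%). In RP they had reached between 23.3% and 52.4% at 0.5 h (median 32.1%), between -3.97% and 39.1% at 1 h (median 21.0%) and between 21.4% and 53.6% at 2 h (median 36.8%). These are values of single libraries, with no test.

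**Figure D3:**
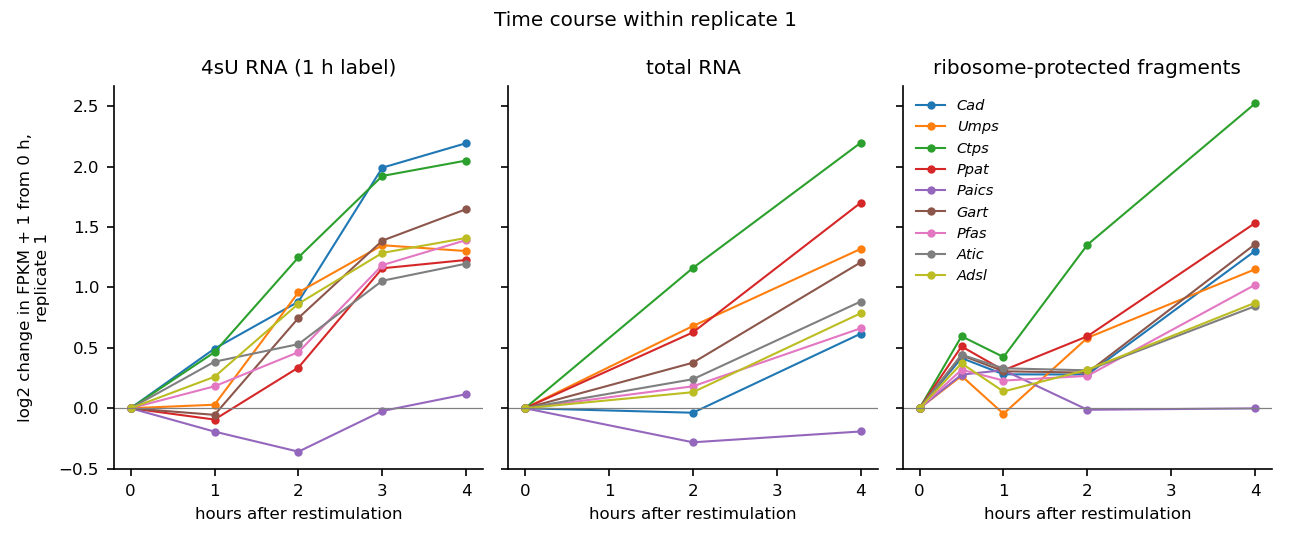
Change in log2(FPKM + 1) from 0 h within replicate 1 for each enzyme, against hours after restimulation, with a panel for each kind of library. In 4sU RNA the lines of 8 enzymes climb between 1 and 3 h, Ctps is the top line in total RNA and ribosome-protected fragments, and Paics stays between -0.36 and 0.32.

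In total RNA at 4 h, 3 of the 9 enzymes were called higher, Ctps, Ppat and Umps, against 13.5% of all genes called, 6.47% higher and 7.02% lower. With the replicate number as a block, 8 of 9 were called, all but Paics, against 39.9% of all genes. The median change over the 9 was 0.80, against -0.10 over all genes.

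Ctps stood in total RNA at 7.26 and 5.79 FPKM at 0 h, 9.65 FPKM at 1 h (replicate 2), 17.5 FPKM at 2 h and 36.9 and 23.7 FPKM at 4 h. It was higher at each later time within a replicate, and its change at 4 h was 2.03 ± 0.28 (adjusted p = 0.0108). It was the enzyme with a call at 2 h with the block (1.30, adjusted p = 0.19, 0.00674 with the block), when limma without the block called none of the 9 and 1.02% of all genes, and 2 enzymes had an unadjusted p below 0.05. The 1.30 is of the fit without the block, and within replicate 1 alone the change was 1.16. The block called 8.07% of all genes at 2 h.

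Ppat stood at 7.34 and 10.9 FPKM at 0 h, 12.4 FPKM at 1 h, 11.9 FPKM at 2 h and 26.1 and 20.6 FPKM at 4 h. Replicate 1 started below replicate 2 and ended above it, and the change at 4 h was 1.28 ± 0.27 (adjusted p = 0.026). Umps stood at 9.89 and 9.26 FPKM at 0 h, 5.38 FPKM at 1 h, 16.5 FPKM at 2 h and 26.2 and 19.9 FPKM at 4 h. Its 1 h library lay below both libraries at 0 h, and its change at 4 h was 1.17 ± 0.24 (adjusted p = 0.0245).

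Gart had 39.1 and 23.9 FPKM in total RNA at 4 h, against 16.3 and 12.4 FPKM at 0 h, a change of 1.05 (adjusted p = 0.0621, 4.67e-05 with the block). Cad had 25.0 and 18.6 FPKM at 4 h, against 15.9 and 8.98 FPKM at 0 h, and here replicate 1 at 0 h lay close to replicate 2 at 4 h (0.80, adjusted p = 0.135, 0.00205 with the block). The groups of both genes did not overlap, and each replicate was higher at 4 h than at 0 h. Adsl (0.77, adjusted p = 0.079, 0.00288 with the block), Atic (0.70, adjusted p = 0.157, 0.00728 with the block) and Pfas (0.58, adjusted p = 0.135, 0.0265 with the block) were of the same kind. Both libraries at 4 h lay above both at 0 h for 8 of the 9 enzymes, as they did for 25.3% of all genes tested.

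Paics stood outside this pattern in total RNA too, at 78.9 and 60.7 FPKM at 4 h, against 90.3 and 85.7 FPKM at 0 h. Both libraries at 4 h lay below both at 0 h, and the change of -0.34 ± 0.25 was not called (adjusted p = 0.385, 0.193 with the block). The total RNA calls at 4 h were sensitive to every replicate: 1 was left without 0 h replicate 1, 2 without 0 h replicate 2, none without 4 h replicate 1 and 1 without 4 h replicate 2. Rescaling raised the total RNA changes at 4 h by 0.10, called 5 of the 9, and gave 783 genes higher and 549 lower, against 587 and 637 as deposited. At 1 h limma called no gene of the 9078 tested in total RNA, 1197 genes and 3 of the 9 enzymes had an unadjusted p below 0.05, and the single library of replicate 2 held Umps, Gart and Pfas at 5.38, 7.28 and 4.66 FPKM, below both of their 0 h libraries.

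Ribosome-protected fragments followed the same enzymes. At 4 h, 6 of 9 were called higher, Ctps, Ppat, Umps, Gart, Cad and Adsl, against 25.0% of all genes called, 12.1% higher and 12.9% lower. The block added Pfas and Atic, and called 48.0% of all genes. The median change over the 9 was 0.94, against -0.10 over all genes.

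Ctps stood in RP at 17.9 and 9.99 FPKM at 0 h, 27.5 FPKM at 0.5 h, 24.3 and 17.1 FPKM at 1 h, 47.2 FPKM at 2 h and 108 and 68.6 FPKM at 4 h. The 4 h libraries were the highest and lay 6.32-fold above the 0 h mean, with a change of 2.59 ± 0.36 (adjusted p = 0.00776). At 2 h the change was 1.74 in the fit without the block (adjusted p = 0.0814, 0.00606 with the block), and 1.35 within replicate 1 alone.

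Ppat stood in RP at 46.5 and 48.5 FPKM at 0 h, 66.8 FPKM at 0.5 h, 58.1 and 72.2 FPKM at 1 h, 70.8 FPKM at 2 h and 137 and 117 FPKM at 4 h, and rose by 1.4 ± 0.19 at 4 h (adjusted p = 0.00771). Umps stood at 51.6 and 43.0 FPKM at 0 h, 62.3 FPKM at 0.5 h, 49.9 and 53.9 FPKM at 1 h, 77.8 FPKM at 2 h and 116 and 106 FPKM at 4 h, and rose by 1.22 ± 0.18 (adjusted p = 0.00902). For both genes the 4 h libraries lay above all earlier ones.

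Gart had 92.4 and 68.6 FPKM at 4 h, against 35.4 and 32.9 FPKM at 0 h (1.20 ± 0.20, adjusted p = 0.0123). Cad had 58.7 and 37.6 FPKM at 4 h, against 23.2 and 24.7 FPKM at 0 h (0.94 ± 0.24, adjusted p = 0.0375). Adsl had 163 and 136 FPKM at 4 h, against 88.6 and 82.7 FPKM at 0 h (0.79 ± 0.18, adjusted p = 0.029). In each, replicate 1 was the higher at 4 h, by 0.63 on the log2 scale for Cad.

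Atic was among the more abundant in RP, with 193 and 142 FPKM at 4 h, against 107 and 105 FPKM at 0 h (0.64, adjusted p = 0.0747, 0.0203 with the block). Pfas had 49.2 and 32.6 FPKM at 4 h, against 23.7 and 23.5 FPKM at 0 h (0.74, adjusted p = 0.0626, 0.018 with the block). Paics had 194 and 199.9 FPKM at 4 h, against 194 and 227 FPKM at 0 h (-0.09, adjusted p = 0.763), with groups that overlapped. The other 8 enzymes had both 4 h libraries above both 0 h libraries, as 29.0% of all genes tested did.

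The single RP library at 0.5 h lay above both 0 h libraries for all 9 enzymes, Paics included, as it did for 27.9% of all genes, with changes between 0.17 for Paics and 0.99 for Ctps. None was called by limma and none had an unadjusted p below 0.05, and none of the 9312 genes tested was called, while 743 had an unadjusted p below 0.05. At 1 h the mean of each of the 9 lay above its 0 h mean, by ratios between 1.10 and 1.49, as it did for 44.6% of all genes. At that time none was called, none had an unadjusted p below 0.05, and 0.14% of all genes were called. At 2 h none was called, 2 had an unadjusted p below 0.05 and 4.93% of all genes were called. With the block 1 was called, against 19.4% of all genes. Between 4 and 1 h, 4 of 9 were called higher, Ctps, Umps, Ppat and Gart (14.1% of all genes called, 7.65% higher), 6 with the block (36.7% of all genes), and none when any of the 4 libraries was left out. The RP calls at 4 h over 0 h numbered 3 without either 0 h replicate, none without 4 h replicate 1 and 6 without 4 h replicate 2.

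Whether the kinds of library changed by different amounts was tested as a difference of changes between 4 and 0 h. For RP minus total RNA, 0.0% of 9021 genes and none of the 9 enzymes were called by limma, and 241 genes but none of the 9 had an unadjusted p below 0.05. The difference was at most 0.56 ± 0.50, for Ctps (adjusted p = 1.00), and its median over the 9 was 0.15. For 4sU minus total RNA, 0.0% of 9033 genes were called and 526 had an unadjusted p below 0.05. Cad had the largest difference, 1.49 ± 0.42 (unadjusted p = 0.00694, adjusted p = 0.601, 0.0127 with the block), and Pfas had 0.69 ± 0.24 (unadjusted p = 0.0194, adjusted p = 0.717, 0.195 with the block). The block called 1.97% of all genes in this comparison. The other enzymes lay between 0.05 for Ppat and 0.72 for Gart, and the median over the 9 was 0.59, against -0.08 over all genes.

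The head-to-head neighbours Ppat and Paics were also set against each other within each library. The ratio of Ppat to Paics FPKM was 0.632 and 0.862 in 4sU RNA at 4 h, against 0.279 and 0.256 at 0 h. It was 0.331 and 0.340 in total RNA at 4 h, against 0.0813 and 0.127 at 0 h, and 0.705 and 0.587 in RP at 4 h, against 0.240 and 0.214 at 0 h. In each kind the 4 h libraries lay above the 0 h libraries, and the ratio was at most 0.299 in 4sU RNA at 1 h. These ratios are given with no test.

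Ctps has an isoenzyme, Ctps2, which catalyses the same step, and the pair moved apart. Ctps2 stood in 4sU RNA at 25.8 and 22.3 FPKM at 0 h, 12.6 and 13.5 FPKM at 1 h, 9.07 FPKM at 2 h, 4.04 FPKM at 3 h and 4.16 and 3.76 FPKM at 4 h. It fell at 4 h (-2.33 ± 0.17, adjusted p = 0.00183), at 3 h (-2.31, adjusted p = 0.00772) and at 2 h (-1.31, adjusted p = 0.0319), while at 1 h it had -0.83 (adjusted p = 0.177, 0.0173 with the block). The 2 h call was lost when either 0 h library was left out. In total RNA it fell by 1.12 on the log2 scale at 4 h (adjusted p = 0.0337), a call that was kept only without 0 h replicate 2. In RP it fell by 1.46 at 4 h (adjusted p = 0.0129), a call that was lost without replicate 1 at 0 h or at 4 h.

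The ratio of Ctps to Ctps2 FPKM was above 1 in all 4 h libraries and below 1 in all 0 h libraries with 1 h of labelling, of total RNA and of RP. In 4sU RNA it was 12.7 and 10.8 at 4 h, against 0.463 and 0.287 at 0 h. In total RNA it was 4.28 and 2.44 at 4 h, against 0.288 and 0.330 at 0 h, and in RP 10.4 and 4.26 at 4 h, against 0.467 and 0.275 at 0 h. In replicate 1 it was 1.34 in 4sU RNA at 1 h and 1.37 in RP at 0.5 h. In replicate 2 it was still below 1 at 1 h, at 0.686 in 4sU RNA, 0.726 in total RNA and 0.643 in RP.

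**Figure D4:**
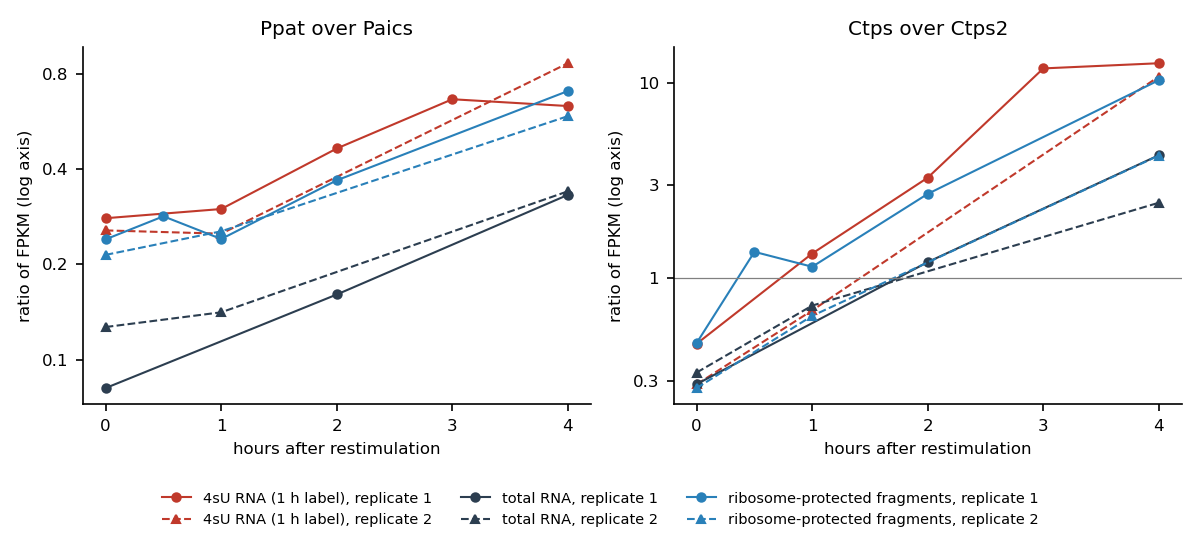
Ratio of FPKM within each library (log axis) against hours after restimulation, for Ppat over Paics and for Ctps over Ctps2, with 1 point per library and lines joining the libraries of a replicate. Both ratios are higher at 4 h than at 0 h in every replicate, and Ctps passes Ctps2 (the grey line at 1) in all of them.

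Other genes of nucleotide metabolism were read from 6 lists with 32 genes in the table, and they did not share a single direction. Their counts at 4 h are to be read beside the shares of all genes called, 33.3% in 4sU RNA, 13.5% in total RNA and 25.0% in RP, and with the replicate block 58.7%, 39.9% and 48.0%. Of the 4 genes that supply PRPP, the substrate of both pathways, 2 rose in 4sU RNA at 4 h (14.4% of all genes rose), Prps1 (0.83 ± 0.15, adjusted p = 0.00948) and Prpsap1 (0.69 ± 0.18, adjusted p = 0.0281), and none was called in total RNA or RP. Of 3 further purine synthesis genes, none was called in 4sU or total RNA and 1, Adss (adenylosuccinate synthase), rose in RP (0.78). Of 5 further pyrimidine genes, Dhodh, the mitochondrial enzyme between Cad and Umps, rose in 4sU RNA (0.78, adjusted p = 0.0476, not called at a pseudocount of 5) and Ctps2 fell in all kinds. With the replicate block, 1 PRPP gene was called in total RNA, 2 of the further purine genes in 4sU RNA and in RP, and 4 of the further pyrimidine genes in 4sU RNA and 3 in RP.

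Of 6 genes of purine salvage and nucleotide kinases, 4 rose and 1 fell in 4sU RNA at 4 h, against 14.4% higher and 18.9% lower among all genes. The largest changes were the fall of Dck, which phosphorylates deoxycytidine (-2.44 ± 0.21, adjusted p = 0.00223), and the rise of Nme1, a nucleoside diphosphate kinase (2.19 ± 0.48, adjusted p = 0.0174). Dck had 6.13 and 7.70 FPKM at 4 h, against 48.9 and 35.6 FPKM at 0 h. It also fell in total RNA (-1.44) and in RP (-1.83), where no other gene of the list was called. The other calls in 4sU RNA, named after their values were seen, were Aprt at 1.68, Guk1 at 1.22 and Hprt at 0.57. With the block, 2 rose and 1 fell in total RNA, and likewise in RP.

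Of 8 enzymes of deoxynucleotide synthesis, which feed DNA replication, 1 was called higher and 3 fell in 4sU RNA at 4 h, against 14.4% higher and 18.9% lower among all genes. The higher one was Dctd, a deaminase of deoxycytidine monophosphate, with 8.54 and 6.96 FPKM at 4 h, against 0.56 and 0.40 FPKM at 0 h. It passed the filter on low values through its libraries at 3 and 4 h, so its call supports nothing, and its change of 2.56 was 3.77 with a pseudocount of 0.1 and 1.22 with one of 5. Rrm2, the regulatory subunit of ribonucleotide reductase, fell (-1.38 ± 0.29, adjusted p = 0.016), with 93.9 and 82.7 FPKM at 4 h, against 275 and 194 FPKM at 0 h. Tyms (-1.38) and Rrm1 (-0.86), named after their values were seen, fell as well. In total RNA Dctd was again the 1 call, with 3.66 and 3.45 FPKM at 4 h, against 0.43 and 0.90 FPKM at 0 h. It passed the filter there through its 4 h libraries, so this call supports nothing either. Its change of 1.47 was 2.33 with a pseudocount of 0.1 and 0.60 with one of 5. With the block, 1 gene was called higher in total RNA and 4 fell. In RP Dctd rose (2.09) and 2 fell, Tk1 (-1.44) and, named after its values were seen, Rrm1 (-0.80, not called after rescaling), while with the block 1 rose and 4 fell.

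Of 6 genes of nucleotide breakdown, none rose and 2 fell in 4sU RNA at 4 h, a share like that of all genes (33.3% called, 18.9% lower). They were Samhd1, a hydrolase of deoxynucleotides (-2.08 ± 0.27, adjusted p = 0.00424), and Nt5c2 (-0.86). Samhd1 also fell in total RNA (-1.71) and in RP (-1.57), and Upp1, a uridine phosphorylase, rose in RP (2.05, adjusted p = 0.0455, not called at a pseudocount of 0.1). With the block, 2 rose and 3 fell in 4sU RNA, and 1 rose and 3 fell in total RNA. Upp1 was 1 of the 2 that rose in 4sU RNA. It had 3.10 and 0.68 FPKM there at 4 h, against 0.39 and 0 FPKM at 0 h. It passed the filter on low values through its libraries at 2, 3 and 4 h, so its 4sU call supports nothing. In total RNA Upp1 passed through its 4 h libraries, at 3.91 and 0.95 FPKM, so a call of it there would support nothing either.

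The medians in 4sU RNA at 4 h were 1.34 for the 9 synthesis enzymes, 0.89 for salvage and kinases, 0.52 for PRPP supply, 0.46 for other purine genes, -0.03 for other pyrimidine genes, -0.48 for breakdown and -0.48 for deoxynucleotide synthesis, against -0.16 over all genes. Of the genes called in 4sU RNA, Dck, Samhd1, Tyms and Ctps2 kept their call whichever of the 4 libraries was left out, and Prpsap1 and Hprt lost theirs each time. Dctd kept its call too, which supports nothing, since it passed the filter through its libraries at 3 and 4 h. Dhodh, Guk1, Nt5c2, Rrm1 and Rrm2 lost theirs in 3 of the 4 cases, Prps1 and Nme1 in 2 and Aprt in 1. In RP, Dck and Tk1 kept theirs, Adss, Upp1 and Rrm1 lost theirs each time, Dctd in 3 cases and Samhd1 in 2. In total RNA each of Dck, Dctd and Samhd1 lost its call without 4 h replicate 1. Leaving out a library left 1 to 4 of the 5 salvage calls in 4sU RNA, 2 to 3 of the 4 deoxynucleotide calls and 0 to 1 of the 2 PRPP calls.

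**Figure D5:**
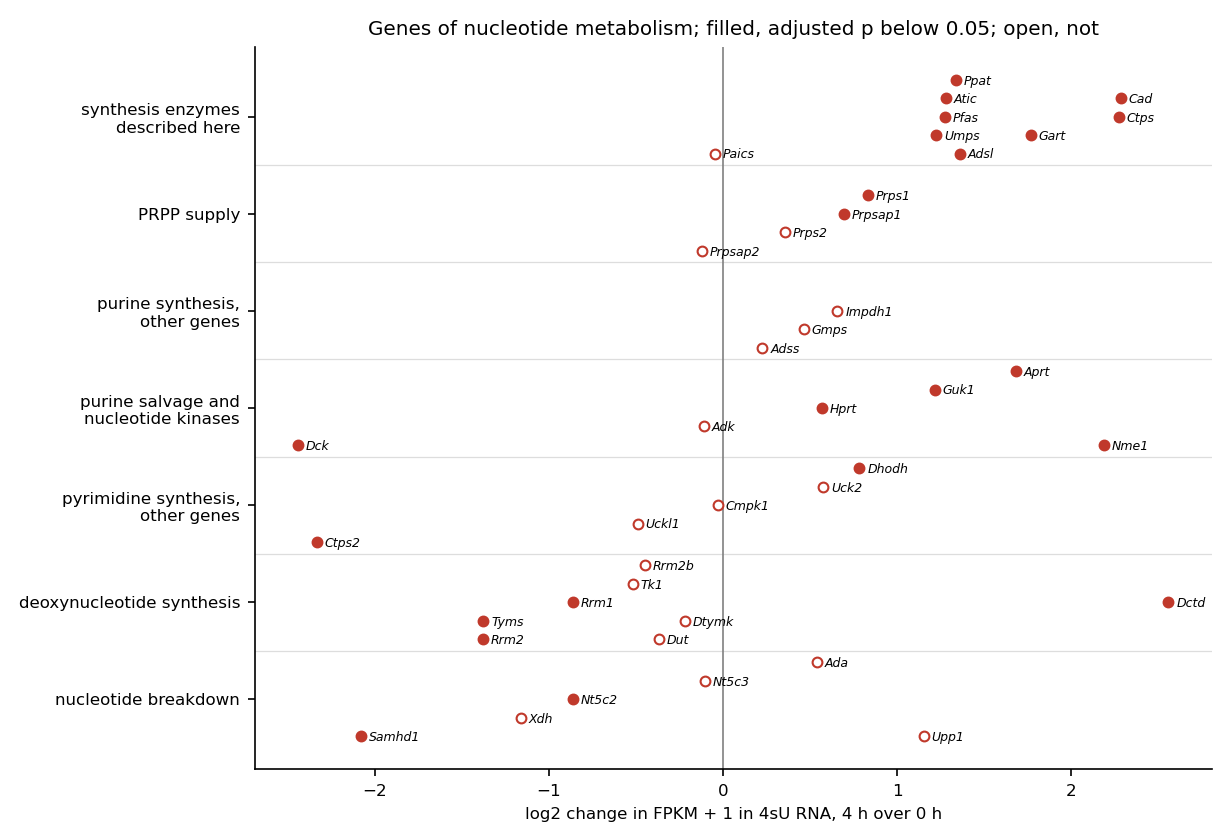
Change in log2(FPKM + 1) in 4sU RNA at 4 h over 0 h for the synthesis enzymes and for 6 lists of other genes of nucleotide metabolism, 1 point per gene, filled where the limma adjusted p was below 0.05. The synthesis enzymes other than Paics lie between 1.23 and 2.29, while most deoxynucleotide genes lie left of 0 and Dctd lies at 2.56.

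The enzymes were also compared by their profiles over the 22 libraries, each centred within its kind of library, as a description with no test, since libraries of a replicate deviated together. Adsl lay closest to the mean of the others (r = 0.969), then Gart (0.963), Atic (0.948), Cad (0.941), Umps (0.928), Ctps (0.921), Ppat (0.908) and Pfas (0.902), and Paics had -0.208. The most alike pairs were Atic with Adsl (0.963), Cad with Adsl (0.959) and Umps with Gart (0.955). Of the 8811 genes compared, those most like the mean profile of the enzymes were Aatf (0.984), Slc7a6 (0.980), Wdr77 (0.980), Timm9 (0.979), Rrp12 (0.978) and Nomo1 (0.977).

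The first 0.5 h was read from the libraries with the short label. None of the 9 differed by 2-fold on log2(FPKM + 1), as 0.948% of 9076 genes did, so this count is not read as a result about the enzymes. Atic had 13.9 FPKM at 0.5 h, against 8.53 FPKM at 0 h (0.64 on the log2 scale), and Umps had 11.3 FPKM at 0.5 h, against 8.54 FPKM at 0 h (0.36). The other 7 lay between -0.18 for Ppat and 0.11 for Ctps. There was 1 library at each time, so these differences have no replicate check.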

How the data were processed

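The authors deposited FPKM (fragments over gene length and library size) with 2 decimals for 9420 genes in 24 libraries. Per the submitters' processing notes, Subread 1.4.6-p3 and its featureCounts were used, with the build GRCm38. Not given in the sources used here are the aligner, annotation, gene length and strand setting. Low genes were absent from the table, in which the lowest maximum of any gene was 0.97 FPKM in 4sU RNA, 0.97 in total RNA and 0.99 in RP. Of the identifiers, 9412 matched a symbol in GENCODE M21.

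Depth was read from the steps between the lowest FPKM (up to 8 reads, tolerance 0.1 read) and resolved in 9 libraries: 8.87 to 26.2 M reads in 7 RP libraries, on coding length, and 4.92 M reads in total RNA 0 h replicate 2 and 12.7 M reads in the short label at 0.5 h, on exon length. The depth of the others is unknown, so no counting intervals are given.

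The test was limma (version 3.58.1, R 4.3.3) with a variance trend, applied to log2(FPKM + 1), which understates the change of low genes. P-values were adjusted by Benjamini-Hochberg over all genes, and a gene with an adjusted p below 0.05 was called. For each kind of library a single model of group means was fitted, on genes with a mean of at least 1 FPKM (9278 for 4sU, 9078 for total RNA, 9312 for RP), with 3, 2 and 3 residual degrees of freedom. Differences between kinds were interactions with 5. The model takes a time with 1 library to have the same spread as the others. The labels do not say that replicates are separate animals or cultures, so p-values measure the spread between these libraries. The fit was also run on simulated data with independent errors and no replicate effect. These libraries differ from that setting, so the run is not used as support for the calls.

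Libraries with the same replicate number deviated together in all 28 pairs of the 8 replicated groups (correlation across genes 0.306 to 0.790, median 0.598). The numbers were taken to pair the libraries, on these data and not on the labels, so the value with the replicate number as a block is printed where it changes a call or moves a count by over 1.5 times.

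All enzymes are named. From the other lists, the 2 called genes with the largest change per list and comparison are named, and so are the 6 genes most like the mean profile. Some genes of these pathways are not reported here. The enzymes and lists were chosen with earlier results of these data known. Alternatives were pseudocounts of 0.1 and 5, no filter and a filter of 5 FPKM, median-of-ratios scaling, the replicate block and leaving out each replicated library.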

Additional observations from a re-analysis of the deposited data

How the results depend on the processing

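With other pseudocounts, filters and scaling, the number of enzymes called stayed within 1.5 times of the value given in every comparison except 1: scaling called 5 rather than 3 in total RNA at 4 h. The replicate block called 1 rather than 0 in 4sU RNA at 1 h, 6 rather than 0 at 2 h, 1 rather than 0 in total RNA and in RP at 2 h, 8 rather than 3 in total RNA at 4 h, and 1 rather than 0 for the difference between 4sU and total RNA. Over all genes the block called 986 rather than 17, 2877 rather than 701, 733 rather than 93, 1806 rather than 459, 3618 rather than 1224 and 178 rather than 0 in the same comparisons. It changed no other count of enzymes by over 1.5 times. Leaving out a library gave 0 to 1 enzymes in 4sU RNA at 3 h, 4 to 8 at 4 h and 2 to 7 between 4 and 1 h, 0 to 2 in total RNA at 4 h, and 0 to 6 in RP at 4 h and 0 between 4 and 1 h. In 4sU RNA at 3 h, at 4 h and between 4 and 1 h, fewer of all genes were called too whenever a library was left out. How much of these losses came from fewer samples and how much from the library left out was not tested. Paics, whose change was never called, turned in sign. In 4sU RNA at 3 h (0.06) it had -0.054 with the block and -0.023 to 0.14 when a 0 h library was left out. At 4 h (-0.05) it had 0.12 with scaling and -0.29 to 0.20 when a library was left out, above 0 without 0 h replicate 1 or 4 h replicate 2. In RP at 4 h (-0.09) it had -0.20 to 0.021, above 0 without 0 h replicate 2. The cause was not tested. No other enzyme's change turned in sign in 4sU RNA at 2, 3 and 4 h or in total RNA and RP at 4 h. At the other times most enzymes were not recomputed singly. In total RNA at 2 h Cad had 0.34, and -0.037 against 0 h replicate 1 alone.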
